A study of Mus musculus with 6 samples.

Results

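The 10 genes described here carry, activate, break down and sense vitamin D, or move and sense calcium in the kidney. They were taken by symbol from the table of gene counts, which held 24434 symbols, and all 10 were found. They were Gc, Cyp27b1, Cyp24a1 and Vdr of the vitamin D system, Pth1r, Kl and Casr, which receive hormonal and calcium signals, and Trpv5, Calb1 and Slc8a1, which carry calcium through distal tubule cells. Polyadenylated RNA of whole mouse kidney was sequenced in 6 strand-specific libraries, of which 3 carry the label db/db and 3 the label db/m, all from mice on normal chow. The db allele alters the splicing of the leptin receptor gene and is present in every cell of the animal. Homozygotes (db/db) develop obesity and diabetes and stand for diabetes in this study, and heterozygotes (db/m), with a single db allele, are its controls. The labels used here do not give age, sex or strain, nor whether different libraries are different animals, and p-values therefore describe only the variation among these libraries.

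Vitamin D circulates bound to the vitamin D-binding protein that Gc encodes, and the proximal tubule recovers the filtered complex from the urine through the receptor pair megalin and cubilin. There the hydroxylase encoded by Cyp27b1 turns it into the hormone calcitriol, and the hydroxylase encoded by Cyp24a1 inactivates it. Parathyroid hormone favours the activating enzyme, whereas calcitriol, acting through its receptor Vdr, and the bone hormone FGF23, acting through its co-receptor Klotho (Kl), favour the inactivating one. In the distal tubule, calcium enters through the channel Trpv5, is buffered by calbindin (Calb1) and leaves through the sodium-calcium exchanger Slc8a1 and calcium pumps.

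Total counts were 27023129 to 29868789 in the db/db libraries and 25937756 to 35931140 in the db/m libraries. Lepr, the gene that the db allele alters, had 5.66, 2.54 and 5.15 CPM in db/db replicates 1 to 3 and 2.94, 2.48 and 3.61 CPM in db/m replicates 1 to 3, which overlap. The db allele alters splicing, so gene counts need not show it, and the groups go by their labels. Defining kidney markers were present in every library, with the sum of 7 proximal tubule markers at 11141 to 13878 CPM in db/db libraries and 8061 to 10801 CPM in db/m libraries. The fat marker Adipoq stood out in db/db replicate 3 (19.2 CPM) and db/m replicate 3 (13.6 CPM), against 0.0792 to 0.522 CPM in the other db/db libraries and 0.506 to 1.34 CPM in the other db/m libraries. Of the other fat markers listed, Cidec, Fabp4 and Plin1 were also highest in replicate 3 of each group. Lep, which was not tested, differed: it was at 0.161, 0 and 0 CPM in db/db replicates 1 to 3. In db/m replicates 1 to 3 Lep was at 0.872, 0.278 and 15.6 CPM. Results are therefore also given without both replicates 3 where that changed them. In bulk tissue, fewer cells of a type and less RNA per cell cannot be told apart.

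Of the 10 genes, 3 rose and 2 fell in db/db kidneys with the quasi-likelihood test of edgeR (adjusted p under 0.05, by Benjamini-Hochberg over 16373 genes). Gc had the most negative log2 fold change, at -3.88, followed by Cyp27b1 at -2.89. Pth1r, Kl and Vdr rose by 1.09, 0.63 and 0.60 on the log2 scale. The other 5, Cyp24a1, Calb1, Slc8a1, Casr and Trpv5, had log2 fold changes of -0.86 to -0.02 and did not pass. Over all genes tested 24.0% passed, 13.1% as higher (2151 genes) and 10.8% as lower (1774 genes). With total counts in place of TMM scaling, 1072 genes were higher and 4883 lower. Libraries of db/db and db/m did not overlap for 6 of the 10 genes, against 44.6% of all genes tested. The median log2 fold change was -0.29 for the 10 genes and -0.06 for all genes, and the median of its absolute size was 0.65 for the 10 and 0.33 for all. All 10 passed the filter on low counts, and the smallest count of any of them was 202, for Cyp27b1 in db/db replicate 3.

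**Figure D1:**
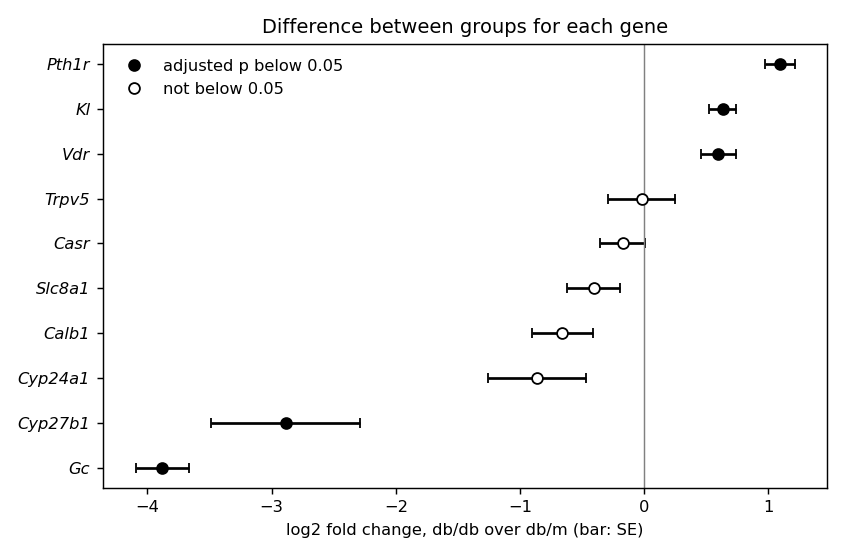
Log2 fold change of each gene, db/db over db/m, on the x axis with genes down the page. Bars are the SE derived from the F statistic of the edgeR test, with 3 libraries per group. Filled points passed an adjusted p of 0.05, from Pth1r at 1.09 to Gc at -3.88.

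The promoters of 4 of the genes that changed are shown because 2 of these genes fell (Gc and Cyp27b1) and 2 rose (Vdr and Kl). Each is the run of 250 bases just before the RefSeq transcription start in GRCm38.p6, printed 5′ to 3′ on the strand of the gene. Of the 10 genes, 8 were matched by symbol in the RefSeq promoter table. Pth1r has 3 start sites there and is not printed. The Gc window is chr5:89457899-89458148 on the minus strand, and the Cyp27b1 window is chr10:127047996-127048245 on the plus strand. The Vdr window is chr15:97908297-97908546 on the minus strand, and the Kl window is chr5:150952357-150952606 on the plus strand. The capitals mark exact matches, on either strand, to any of 6 short motifs, which did not overlap each other in these windows.
Gc: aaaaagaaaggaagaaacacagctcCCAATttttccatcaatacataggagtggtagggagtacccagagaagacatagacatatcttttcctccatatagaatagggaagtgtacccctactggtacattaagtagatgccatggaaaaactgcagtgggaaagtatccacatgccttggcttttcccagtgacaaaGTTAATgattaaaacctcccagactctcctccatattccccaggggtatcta
Cyp27b1: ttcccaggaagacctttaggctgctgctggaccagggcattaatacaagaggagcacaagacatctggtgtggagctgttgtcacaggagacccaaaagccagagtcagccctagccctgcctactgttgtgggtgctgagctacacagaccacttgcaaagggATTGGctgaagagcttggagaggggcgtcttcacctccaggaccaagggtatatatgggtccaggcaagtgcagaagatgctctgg
Vdr: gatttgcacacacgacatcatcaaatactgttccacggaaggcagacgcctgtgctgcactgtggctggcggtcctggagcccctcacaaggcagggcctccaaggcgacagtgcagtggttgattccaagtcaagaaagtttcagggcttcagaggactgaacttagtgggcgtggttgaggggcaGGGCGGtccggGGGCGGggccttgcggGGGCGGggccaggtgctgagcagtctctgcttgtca
Kl: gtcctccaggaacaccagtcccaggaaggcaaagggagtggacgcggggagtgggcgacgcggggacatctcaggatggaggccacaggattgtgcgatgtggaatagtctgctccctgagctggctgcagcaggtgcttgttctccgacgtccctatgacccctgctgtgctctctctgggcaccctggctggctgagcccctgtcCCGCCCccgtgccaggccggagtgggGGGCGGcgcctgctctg

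These 6 were GTTAAT (the half-site of the tubular and hepatic factor HNF1), the motif CCAAT, the GC box GGGCGG, the TATA box written TATAAA, and a pair of nuclear receptor half-sites, AGGTCA with its variant form GGTTCA. The Gc window held GTTAAT at 52 to 47 bases before the start, a motif present on either strand in 6.43% of the 32851 promoters of the same length, and CCAAT at 225 to 221 bases before it. Cyp27b1 held a single match, to CCAAT on the opposite strand at 86 to 82 bases before the start, and 33.8% of all promoters hold that motif. Vdr held 3 GC boxes and Kl held 2, a motif found in 32.7% of all promoters. None of the 4 windows held TATAAA, which 12.4% of all promoters hold. Likewise none held AGGTCA (14% of all promoters) or its variant GGTTCA (8.85%). The share of G and C was 61.2% for Vdr and 66.8% for Kl, and 42.0% for Gc and 54.4% for Cyp27b1. The median of all promoters was 52.4%. Pth1r, which also rose, had 56.0%, 65.6% and 70.4% in its 3 windows, the lowest of them close to Cyp27b1. Windows of the uncalled genes Casr, Slc8a1 and Trpv5 had 48.8%, 50.4% and 51.6%. A link between this share and the direction of change was not tested. These matches describe the letters in the windows and no binding was measured.

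Gc, which encodes the plasma carrier of vitamin D, made chiefly by the liver, was at 19.6, 13.8 and 17.4 CPM in db/db replicates 1 to 3, against 290, 186 and 272 CPM in db/m replicates 1 to 3 (CPM is counts per 1000000 after TMM scaling). The highest db/db library was far below the lowest db/m library. The means were 16.9 ± 2.91 CPM in db/db and 250 ± 55.5 CPM in db/m kidneys (SD, n = 3 each), so Gc was 14.7-fold lower in db/db (log2 fold change -3.88, SE 0.21, edgeR adjusted p = 0.000104). By absolute log2 fold change it ranked 125 of 16373 genes. The call held with each library left out, where the log2 fold change ran from -4.05 to -3.74. Of 7 hepatocyte markers, 6 were tested, 1 rose (Ttr, transthyretin, at 176 to 240 CPM in db/db and 3.99 to 43.5 CPM in db/m) and 0 fell in edgeR, with 1 lower at an unadjusted p below 0.05 and 1 lower in DESeq2. The sum of the 7 was 203 to 264 CPM in db/db and 27.5 to 74.3 CPM in db/m libraries. Ttr alone made up 176 to 240 CPM of this sum in db/db and 3.99 to 43.5 CPM in db/m, so the sum mainly follows Ttr. Ahsg was near the floor and not tested, at 0.110 to 0.713 CPM in db/db libraries. In db/m it was at 0 in replicates 1 and 3 and at 0.228 CPM in replicate 2. Alb, which encodes albumin, had 9.87, 10.6 and 4.53 CPM in db/db libraries and 16.9, 6.45 and 12.8 CPM in db/m libraries, which overlap.

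Cyp27b1, the hydroxylase that makes calcitriol, was at 13.0, 11.5 and 7.37 CPM in db/db replicates 1 to 3, against 43.9, 34.5 and 158 CPM in db/m replicates 1 to 3. All db/db libraries were below all db/m libraries, and db/m replicate 3 stood well above both other db/m libraries. The means were 10.6 ± 2.94 CPM in db/db and 78.8 ± 68.7 CPM in db/m (SD, n = 3 each), and the gene was 7.40-fold lower in db/db (log2 fold change -2.89, SE 0.60, edgeR adjusted p = 0.0147). Its size depended on db/m replicate 3: without that library the log2 fold change was -1.87 (adjusted p = 0.00503), and it was -1.67 without both replicates 3 (adjusted p = 0.0116). The call ended when db/db replicate 2 was left out (adjusted p = 0.0564), and also when db/db replicate 3 was (adjusted p = 0.0601). Within the db/m group its highest value was 4.58 times its lowest, and its coefficient of variation was 27.6% in db/db and 87.2% in db/m, against medians over all tested genes of 12.2% in db/db and 13.5% in db/m.

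Cyp24a1, the hydroxylase that inactivates calcitriol and its precursor, was at 75.0, 35.2 and 42.2 CPM in db/db replicates 1 to 3, against 131, 49.1 and 96.8 CPM in db/m replicates 1 to 3. The groups overlapped, since db/db replicate 1 exceeded db/m replicate 2. The means were 50.8 ± 21.2 CPM in db/db and 92.4 ± 41.3 CPM in db/m (SD, n = 3 each), and the difference did not pass (log2 fold change -0.86, SE 0.40, edgeR adjusted p = 0.152). Leaving out 1 library gave log2 fold changes of -1.25 to -0.51, none of which passed.

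Within a library, the ratio of Cyp24a1 to Cyp27b1 sets the inactivating against the activating enzyme. It was 5.72, 3.04 and 5.67 in db/db replicates 1 to 3, against 2.99, 1.42 and 0.613 in db/m replicates 1 to 3. Every db/db library was above every db/m library, but by little between db/db replicate 2 and db/m replicate 1. The log2 ratio averaged 2.21 ± 0.52 in db/db and 0.46 ± 1.14 in db/m (SD, n = 3 each), a difference of 1.75 with p = 0.1 in a two-sided exact permutation test, which is the smallest p that 3 against 3 libraries allow. Without db/m replicate 3 the difference was 1.17, and without both replicates 3 it was 1.02. In these same libraries Cyp27b1 fell by more (log2 fold change -2.89) than Cyp24a1 (-0.86). The genes were also chosen with earlier results of these data known. The higher ratio in db/db therefore restates the values of the 2 genes and is no separate support.

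**Figure D2:**
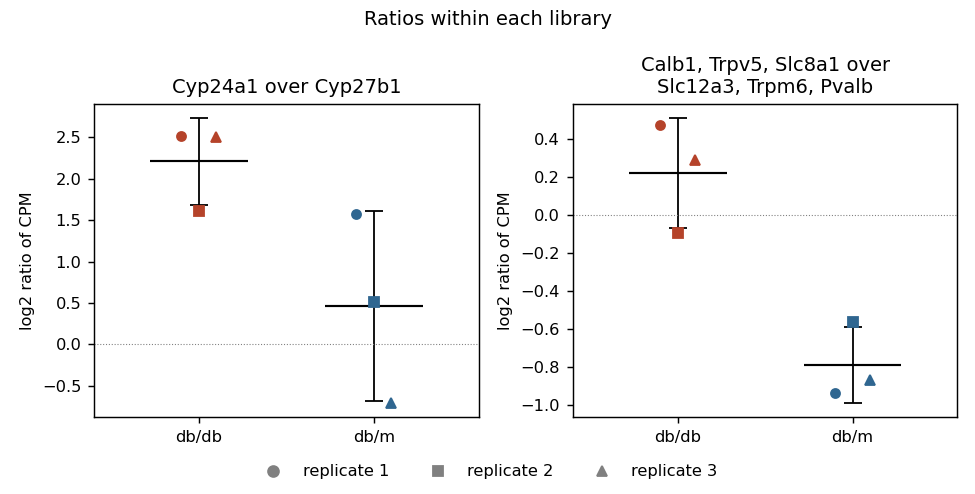
Log2 ratios of CPM within each library on the y axis, for Cyp24a1 over Cyp27b1 (left) and for the mean of Calb1, Trpv5 and Slc8a1 over the mean of Slc12a3, Trpm6 and Pvalb (right), with db/db and db/m on the x axis. Symbols mark the replicate and the line and bar the mean and SD of 3 libraries, with means of 2.21 and 0.46 on the left and 0.22 and -0.79 on the right.

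Vdr, the nuclear receptor for calcitriol, was at 328, 286 and 246 CPM in db/db replicates 1 to 3, against 188, 165 and 215 CPM in db/m replicates 1 to 3. Every db/db library was above every db/m library. Means were 286 ± 41.3 CPM in db/db and 189 ± 25.2 CPM in db/m (SD, n = 3 each), and Vdr rose 1.51-fold (log2 fold change 0.60, SE 0.14, edgeR adjusted p = 0.0219). When db/db replicate 1 was left out the call ended (log2 fold change 0.49, adjusted p = 0.0671), as it did for db/db replicate 2 (0.60, with 0.0628 as the adjusted p) and for db/m replicate 2 (0.51, with 0.0667). With total counts in place of TMM scaling it was 0.33 (adjusted p = 0.109). Total counts moved the median of all tested genes to -0.32 on the log2 scale, against -0.06 with TMM scaling. Relative to that median Vdr was at 0.65 under both scalings. Rescaling shifts all genes nearly alike, so this agreement was fixed in advance and is no test of the call.

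Pth1r, the receptor for parathyroid hormone and its related peptide, was at 795, 971 and 748 CPM in db/db replicates 1 to 3, against 415, 394 and 370 CPM in db/m replicates 1 to 3. The lowest db/db library was well above the highest db/m library. The means were 838 ± 118 CPM in db/db and 393 ± 22.9 CPM in db/m (SD, n = 3 each), so Pth1r rose 2.13-fold (log2 fold change 1.09, SE 0.12, edgeR adjusted p = 0.00146). With each library left out, the log2 fold change was 0.98 to 1.17 and passed. Kl, the co-receptor that lets FGF23 act on kidney cells, was at 457, 398 and 429 CPM in db/db replicates 1 to 3, against 244, 284 and 300 CPM in db/m replicates 1 to 3, again with no overlap. Its means were 428 ± 29.5 CPM in db/db and 276 ± 29.3 CPM in db/m (SD, n = 3 each), a rise of 1.55-fold (log2 fold change 0.63, SE 0.11, edgeR adjusted p = 0.00679) that passed with each library left out. With total counts in place of TMM scaling it was 0.37 (adjusted p = 0.0469). Relative to the median of all genes it was at 0.69 under both scalings, which for the same reason is no test of the call. Pth1r and Kl are known from proximal and distal tubule cells. Of 7 proximal tubule markers, 1 rose (Slc22a6, an organic anion transporter) and 1 fell (Slc5a12, a lactate carrier) in edgeR. At an unadjusted p below 0.05 there were 3 higher and 2 lower, and in DESeq2 there were 3 higher and 1 lower. The median log2 fold change of these 7 was 0.22. The part of tubule cell composition in these rises was not tested.

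Casr, the calcium-sensing receptor, which in the thick ascending limb restrains calcium recovery, did not pass and its groups overlapped. It was at 39.7, 29.3 and 30.1 CPM in db/db replicates 1 to 3, against 28.7, 43.4 and 39.6 CPM in db/m replicates 1 to 3. The means were 33.0 ± 5.81 CPM in db/db and 37.2 ± 7.62 CPM in db/m (SD, n = 3 each), and the log2 fold change was -0.17 (SE 0.18, edgeR adjusted p = 0.518). Of 5 thick ascending limb markers, 1 fell in edgeR (Kcnj1, a potassium channel), with 3 lower at an unadjusted p below 0.05 and 1 lower in DESeq2, and 0 were higher by any of these counts.

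**Figure D3:**
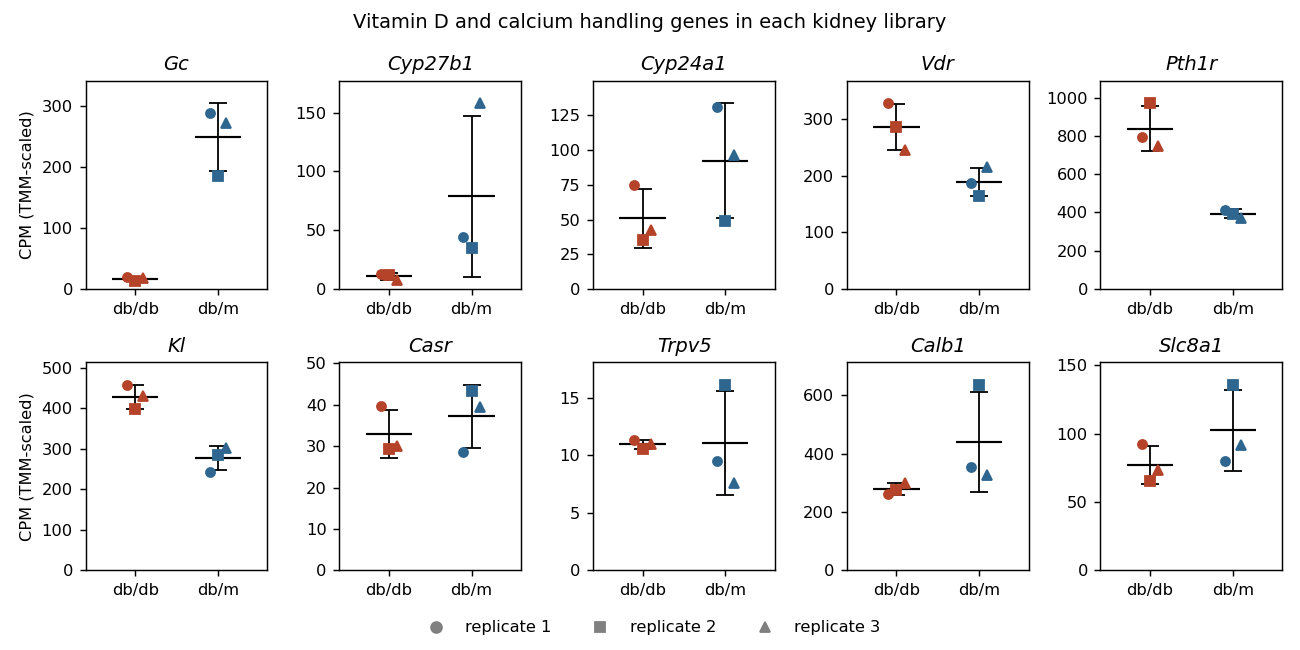
CPM after TMM scaling on the y axis (from 0, with a scale for each gene) in every library of db/db and db/m kidneys on the x axis. Symbols mark the replicate and the line and bar the mean and SD of 3 libraries; Gc lies at 13.8 to 19.6 CPM in db/db and 186 to 290 CPM in db/m.

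None of the 3 genes that carry calcium through distal tubule cells passed. Calb1, the calcium buffer calbindin, was at 260, 276 and 298 CPM in db/db replicates 1 to 3, against 355, 635 and 326 CPM in db/m replicates 1 to 3. All db/db libraries were below all db/m libraries, and db/m replicate 2 stood apart. The means were 278 ± 19.4 CPM in db/db and 439 ± 171 CPM in db/m (SD, n = 3 each), and the log2 fold change was -0.66 (SE 0.25, edgeR adjusted p = 0.0909). Without db/m replicate 2 the log2 fold change was -0.29 (adjusted p = 0.123). Calb1 passed as lower in the DESeq2 Wald test (log2 fold change -0.64, adjusted p = 0.0218), with total counts in edgeR (-0.92, adjusted p = 0.0270) and without db/m replicate 3 (-0.82, adjusted p = 0.0482).

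Trpv5, the channel through which calcium enters these cells, was at 11.4, 10.5 and 11.0 CPM in db/db replicates 1 to 3, against 9.52, 16.1 and 7.57 CPM in db/m replicates 1 to 3. The db/db libraries lay within the db/m range, and the log2 fold change was -0.02 (SE 0.27, edgeR adjusted p = 0.969). It was 0.36 without db/m replicate 2 (adjusted p = 0.212). Slc8a1, the exchanger that takes calcium out of the cell toward the blood, was at 92.8, 65.8 and 73.5 CPM in db/db replicates 1 to 3, against 79.9, 136 and 91.7 CPM in db/m replicates 1 to 3. Its groups overlapped and its log2 fold change was -0.41 (SE 0.21, edgeR adjusted p = 0.204), or -0.14 without db/m replicate 2 (adjusted p = 0.579). Cardiac and skeletal muscle, where Slc8a1 is abundant, left little RNA in these libraries, with a sum of 6 muscle markers of 3.17 to 4.83 CPM in db/db and 2.96 to 3.45 CPM in db/m.

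The highest value of Calb1, Trpv5, Slc8a1 and Casr was in db/m replicate 2. Among the 3 db/m libraries this one was also the lowest for Gc, Vdr, Cyp27b1 and Cyp24a1. The sum of 7 markers of the distal convoluted and connecting tubule was 4581 to 4787 CPM in db/db libraries, and 3292, 4264 and 3402 CPM in db/m replicates 1 to 3, so it too was highest in replicate 2 among the db/m libraries. Klk1 alone made up 2610 to 3170 CPM of this sum in db/db libraries and 1269 to 1605 CPM in db/m libraries. The sum of 7 proximal tubule markers was 10801, 8061 and 8739 CPM in db/m replicates 1 to 3 and thus lowest in replicate 2. Slc34a1 alone made up 6422, 4033 and 4324 CPM of this sum in db/m replicates 1 to 3. Slc5a2, Slc5a12, Slc22a6 and Slc13a3 were also lowest in replicate 2 among the db/m libraries, but Aqp1 and Lrp2 were highest there. The part of tubule cell composition in these values was not tested.

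**Figure D4:**
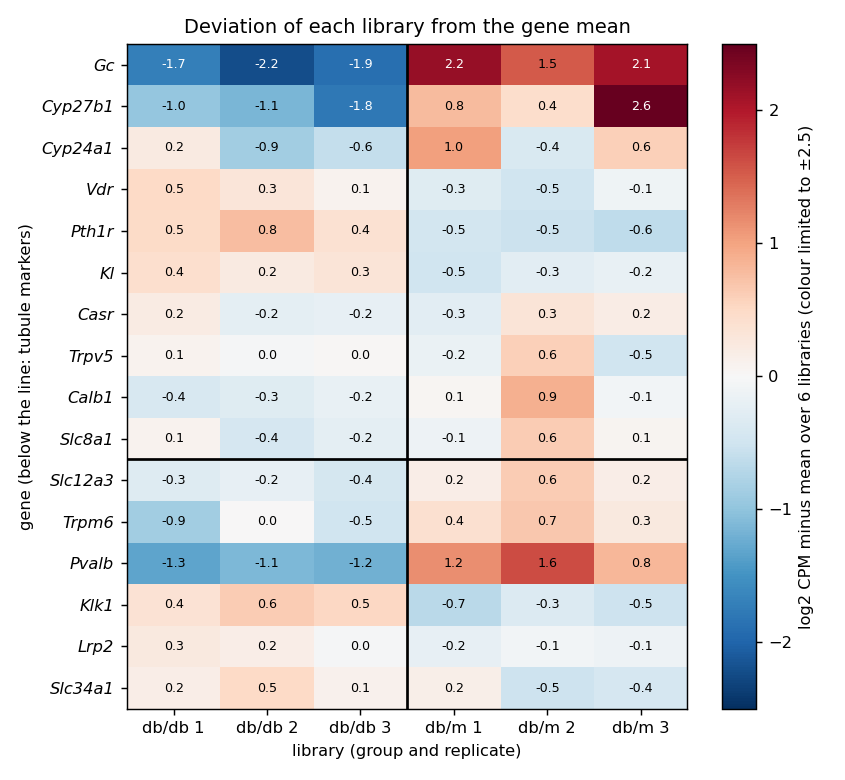
Log2 CPM of each gene minus its mean over the 6 libraries (colour and printed value), with libraries on the x axis and genes down the page, the 10 genes above the line and 6 tubule markers below it. Gc and Cyp27b1 are low in all db/db libraries, and Calb1, Trpv5 and Slc8a1 are highest in db/m replicate 2.

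Of 7 markers of the distal convoluted and connecting tubule, 3 fell and 1 rose: Pvalb (parvalbumin, a calcium buffer) by a log2 fold change of -2.46 (SE 0.20, edgeR adjusted p = 0.000497), Trpm6 (a magnesium channel) by -0.86 (SE 0.23, edgeR adjusted p = 0.0332), Slc12a3 (the thiazide-sensitive sodium-chloride carrier) by -0.66 (SE 0.15, edgeR adjusted p = 0.0200), and Klk1 (tissue kallikrein) by 1.02 (SE 0.13, edgeR adjusted p = 0.00231). The other 3 did not pass: Egf (epidermal growth factor) had a log2 fold change of 0.04, Wnk1 (a kinase that regulates salt carriers) -0.01 and Klhl3 (an adaptor that marks such kinases for degradation) -0.51 (edgeR adjusted p = 0.900, 0.969 and 0.0892 in that order). At an unadjusted p below 0.05, and also in DESeq2, 1 of the 7 was higher and 4 were lower. Set against the mean of Slc12a3, Trpm6 and Pvalb within each library, the mean log2 level of Calb1, Trpv5 and Slc8a1 was 0.47, -0.10 and 0.29 in db/db replicates 1 to 3, against -0.94, -0.56 and -0.87 in db/m replicates 1 to 3. The groups did not overlap, with means of 0.22 ± 0.29 in db/db and -0.79 ± 0.20 in db/m (SD, n = 3 each). The difference of 1.01 had p = 0.1 in a two-sided exact permutation test, the smallest p possible here. The 3 genes they were set against are the same 3 markers that fell, in a list chosen with earlier results of these data known, so the direction of this difference follows from that choice and supports nothing about the calcium carriers. Its size depended on Pvalb: against Slc12a3 and Trpm6 alone, a choice made after the values were seen, the difference was 0.46 (exact permutation p = 0.2) and the groups overlapped.

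Compared per kilobase of merged exon (GENCODE vM21, which may differ from the annotation that was counted), Pth1r had the highest level of the 10 genes in db/db kidneys, at 286 ± 40.2 CPM per kb (SD, n = 3). Next came Calb1, Vdr and Kl, at 57.4, 50.7 and 45.9 CPM per kb, neighbours whose libraries overlapped. Cyp24a1 at 14.3, Gc at 9.18 and Casr at 7.00 CPM per kb also overlapped from one to the next, as did Cyp27b1 at 4.14, Slc8a1 at 4.11 and Trpv5 at 3.38 CPM per kb. In db/m kidneys Gc was first at 135 ± 30.1 CPM per kb (SD, n = 3), level with Pth1r at 134 ± 7.82 CPM per kb. Calb1 followed at 90.5 CPM per kb, and one of its libraries reached into the range of Pth1r. Vdr, Cyp27b1, Kl and Cyp24a1, at 33.5, 30.6, 29.6 and 26.0 CPM per kb, overlapped, and Casr, Slc8a1 and Trpv5, at 7.89, 5.45 and 3.42 CPM per kb, closed the order. Gc thus ranked 1 of 10 in db/m and 6 of 10 in db/db. Cyp27b1 ranked 8 of 10 in db/db, and its rank of 5 of 10 in db/m rested on replicate 3, at 61.4 CPM per kb against 17.1 and 13.4 CPM per kb in db/m replicates 1 and 2. The coefficient of variation of Trpv5 was 3.74% in db/db and 40.6% in db/m, on 266 to 301 counts in db/db and 235 to 638 counts in db/m libraries.

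A further 60 genes of the same pathways were listed in 5 groups, of which 52 passed the filter, 3 rose and 6 fell. The DESeq2 Wald test called 10 as higher, total counts in edgeR gave 23 as lower, and without db/m replicate 2 there were 3 lower. Their median log2 fold change was -0.03. The shares of 5.77% higher and 11.5% lower stood beside 13.1% and 10.8% over all genes.

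Among 14 genes of vitamin D uptake, synthesis and receptor partners, 1 rose and 1 fell in edgeR. At an unadjusted p below 0.05, and also in DESeq2, 4 were higher and 1 was lower. Fdx1, the ferredoxin that passes electrons to mitochondrial hydroxylases such as those of vitamin D, was at 114 ± 2.96 CPM in db/db and 69.5 ± 11.7 CPM in db/m (SD, n = 3 each; log2 fold change 0.72, SE 0.12, edgeR adjusted p = 0.00709, or 0.0694 without both replicates 3). Rxrg, a partner receptor of Vdr, was near the floor, at 0, 0 and 0.219 CPM in db/db replicates 1 to 3, against 0.872, 1.24 and 1.26 CPM in db/m replicates 1 to 3 (edgeR adjusted p = 0.0199). Its call ended when any of db/db replicate 1, db/db replicate 2 or db/m replicate 2 was left out (adjusted p = 0.0554, 0.0595 and 0.0605 in that order), and db/db replicate 3 held all counts of the db/db group. Lrp2, which encodes megalin, was at 1263 ± 121 CPM in db/db and 1044 ± 50.1 CPM in db/m, and Dab2, its adaptor, was at 364 ± 14.6 CPM in db/db and 304 ± 25.0 CPM in db/m (SD, n = 3 each), with no overlap between groups for either. Neither passed (edgeR adjusted p = 0.0935 for Lrp2 and 0.0737 for Dab2). Both did in the DESeq2 Wald test (adjusted p = 0.0375 for Lrp2 and 0.0383 for Dab2), as did Dab2 without db/m replicate 1 (edgeR adjusted p = 0.0365).

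Among calcium channels, carriers, pumps and buffers, 3 of 10 tested genes fell in edgeR, with 5 lower at an unadjusted p below 0.05 and 3 lower in DESeq2. None was higher by any of these counts (0 in edgeR, 0 unadjusted and 0 in DESeq2). Stc1, which encodes the hormone stanniocalcin, was at 3.03 ± 0.698 CPM in db/db and 15.4 ± 6.15 CPM in db/m (SD, n = 3 each; log2 fold change -2.34, SE 0.35, edgeR adjusted p = 0.00423). Slc8b1, the mitochondrial sodium-calcium exchanger, was at 13.2 ± 1.90 CPM in db/db and 25.4 ± 3.15 CPM in db/m (SD, n = 3 each; log2 fold change -0.95, SE 0.15, edgeR adjusted p = 0.00496). Atp2b1, a plasma membrane calcium pump, had a log2 fold change of -0.45 (SE 0.10, edgeR adjusted p = 0.0172), which did not pass without db/db replicate 2, db/db replicate 3 or db/m replicate 2 (adjusted p = 0.0592 to 0.0711), nor without both replicates 3 (adjusted p = 0.116). S100g, the small calbindin of the distal tubule, was at 817 ± 179 CPM in db/db and 841 ± 331 CPM in db/m (SD, n = 3 each) and did not pass (log2 fold change -0.04, SE 0.30, edgeR adjusted p = 0.933), and without db/m replicate 2 it was at 0.28 (adjusted p = 0.505). Tgm2, a calcium-dependent transglutaminase, had a log2 fold change of -0.10 (SE 0.10, edgeR adjusted p = 0.467).

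Of 7 tested genes of the paracellular route, claudins and uromodulin, edgeR called 0, with 1 higher and 1 lower both at an unadjusted p below 0.05 and in DESeq2. Umod, which encodes uromodulin, had a log2 fold change of 0.25 (SE 0.25, edgeR adjusted p = 0.494), which was -0.01 without db/db replicate 1. Cldn2, the calcium-permeable claudin of the proximal tubule, had -0.03 (SE 0.10, edgeR adjusted p = 0.86), which was 0.06 without db/m replicate 3 and 0.02 without db/db replicate 3.

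In the group of parathyroid hormone and calcium receptor signalling, 1 of 10 tested genes fell and 0 rose in edgeR. At an unadjusted p below 0.05 there were 4 higher and 2 lower, and in DESeq2 there were 2 higher and 1 lower. The gene that fell was Adcy6, an adenylyl cyclase, at 109 ± 4.43 CPM in db/db and 176 ± 14.3 CPM in db/m (SD, n = 3 each; log2 fold change -0.69, SE 0.09, edgeR adjusted p = 0.00239). Gnas, the stimulatory G protein to which Pth1r couples, had 0.27 (SE 0.09, edgeR adjusted p = 0.0592), and Slc9a3r1, a scaffold that binds Pth1r and the phosphate carrier Slc34a1, had 0.30 (SE 0.10, edgeR adjusted p = 0.0698). These were the 2 genes that DESeq2 called higher (adjusted p = 0.0181 for Gnas and 0.0295 for Slc9a3r1), and Adcy6 was the 1 it called lower (adjusted p = 8.07e-09). The genes for parathyroid hormone, Pth, and its related peptide, Pthlh, were at 0.258 CPM or less in every library and were not tested. The sum of the 2 parathyroid and thyroid markers found in the table was at most 0.292 CPM in db/db and 0.451 CPM in db/m.

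Of 11 tested partners of FGF23 and Klotho and phosphate carriers, 2 rose and 1 fell in edgeR. At an unadjusted p below 0.05 there were 3 higher and 3 lower, and in DESeq2 there were 3 higher and 1 lower. Galnt3, a glycosyltransferase that protects FGF23 from cleavage, was at 64.1 ± 5.81 CPM in db/db and 36.1 ± 5.13 CPM in db/m (SD, n = 3 each; log2 fold change 0.83, SE 0.13, edgeR adjusted p = 0.00449). Fgf23 itself was at 0 in all 6 libraries. Slc20a2, a sodium-phosphate carrier, rose by 0.45 (SE 0.09, edgeR adjusted p = 0.0148), with no call without db/db replicate 1, db/db replicate 3 or db/m replicate 2 (adjusted p = 0.0523 to 0.0552), without both replicates 3 (adjusted p = 0.0833) or with total counts in edgeR (0.19, adjusted p = 0.166). Adam17, a protease that sheds Klotho from the cell surface, fell by 0.45 on the log2 scale (SE 0.10, edgeR adjusted p = 0.016), with no call when db/db replicate 1 (adjusted p = 0.0535), or db/m replicate 2 (adjusted p = 0.0671), or both replicates 3 (adjusted p = 0.0820) were left out. The main proximal phosphate carrier Slc34a1, at 6956 ± 1074 CPM in db/db and 4927 ± 1304 CPM in db/m (SD, n = 3 each), did not pass (log2 fold change 0.50, SE 0.21, edgeR adjusted p = 0.121). It passed without db/m replicate 1 (0.75, edgeR adjusted p = 0.0156) and in DESeq2 (0.51, adjusted p = 0.0337). Slc20a1, another phosphate carrier, had 0.34 (SE 0.33, edgeR adjusted p = 0.478) and -0.06 without db/db replicate 1.

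**Figure D5:**
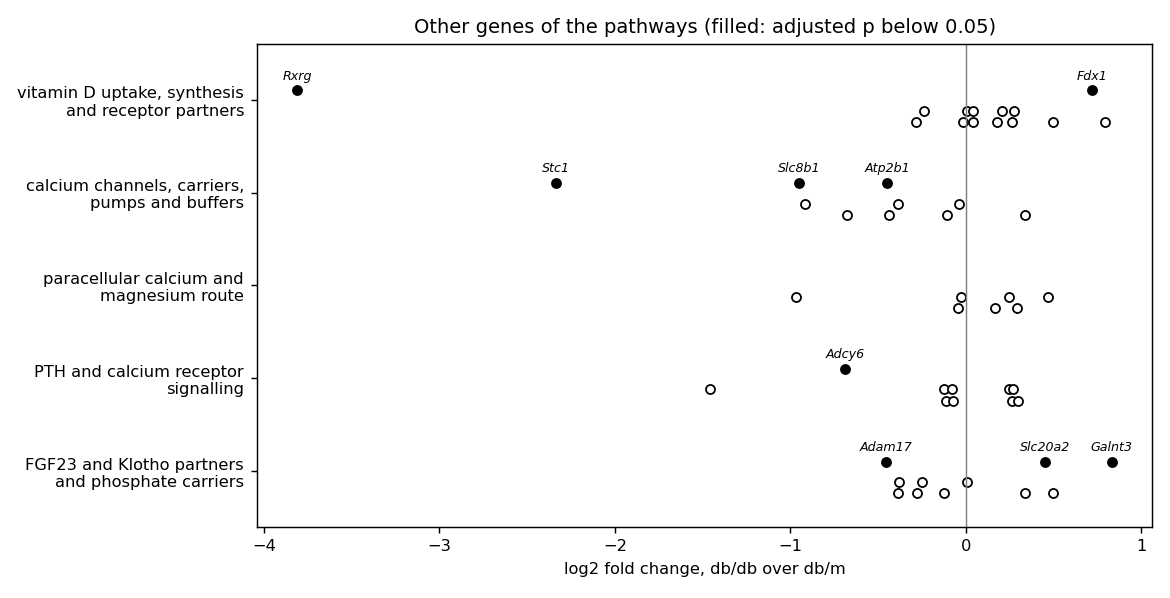
Log2 fold change, db/db over db/m, on the x axis for the tested genes of 5 pathway groups down the page, where each point is a gene and filled, named points passed an adjusted p of 0.05. Of 52 genes 3 lie above 0 and 6 below 0 as filled points, from Rxrg on the left, whose position depends on the prior count because its counts were near 0, to Galnt3 on the right.

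Among well-expressed genes (average log2 CPM of at least 2), those whose values over the 6 libraries lay closest to each gene that changed were found by Euclidean distance between log2 CPM values centred on the mean of the gene. Gc lay closest to Kynu (distance 0.58), Ugt1a10 (0.73) and Aldh1a1 (1.18), and Cyp27b1 to Pla2g5 (1.28), Cyp2c23 (1.37) and Prlr (1.54). Pth1r lay closest to Ramp3 (0.07), Pxdn (0.16) and Ttc36 (0.16). For Kl the nearest were Tmem30a (0.09), Cpped1 (0.10) and Srp54c (0.12), and for Vdr they were Agtr1a (0.12), Cradd (0.15) and Myorg (0.15). Kynu, for example, was at 3.61, 3.01 and 3.25 CPM in db/db replicates 1 to 3, against 53.7, 48.8 and 42.3 CPM in db/m replicates 1 to 3, and Ramp3 at 29.7, 37.3 and 28.4 CPM in db/db replicates 1 to 3, against 16.4, 14.7 and 14.4 CPM in db/m replicates 1 to 3. Distances grow with the spread of a gene, so those of Cyp27b1 and Vdr are not on a common footing. Reads that fit several genes could affect the counts of Ugt1a10 and Srp54c, which was not tested.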

How the data were processed

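Polyadenylated RNA of whole kidney was sequenced in 6 mouse libraries, 3 per genotype label. The authors deposited 1 table of raw, whole-number counts for each gene symbol. The submitters' processing notes name StringTie, HISAT2, SAMtools, fastp, FastQC and DESeq2, with neither versions nor roles. Build, annotation and counter settings: not given in the sources used here.

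Columns were assigned by name (a column db1 is the library titled db/db1). The filter filterByExpr on low counts kept 16373 of 24434 genes, and TMM factors (0.901 to 1.12) scaled the libraries. Groups were compared with the edgeR 4.0.16 quasi-likelihood test in R 4.3.3, with Benjamini-Hochberg adjustment. Each SE was obtained as the absolute log2 fold change over the root of the F statistic. Ratios were differences of log2 CPM (prior count 2). The procedure was run on simulated counts whose spread followed the trend over all genes. Such counts lack the spread of single genes such as Cyp27b1, so the run is no test of the calls given here. Promoter sequences came from RefSeq (GRCm38.p6) and exon lengths from GENCODE vM21. Pairs of libraries within a group were not duplicates (chi-square over its degrees of freedom was 16.0 to 60.1) and each counts as a replicate.

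The 10 genes, the pathway lists and the marker lists were chosen with earlier results of these data known. Named were all 10 genes, up to 4 called genes per direction and the 2 most abundant uncalled genes of each pathway list, and the 3 nearest genes of each called gene. Alternatives were other scalings (upper quartile, total counts, size factors), the DESeq2 1.42.0 Wald test, limma-voom (limma 3.58.1), no filter or a stricter one (at least 1 CPM and 10 counts in 3 libraries), omitting mitochondrial genes, a replicate block, and omitting each library or both replicates 3. Cell type marker lists are given as counts and levels only.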

Additional observations from a re-analysis of the deposited data

How the results depend on the processing

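Of 160 repeats over the 10 genes (16 settings each), 144 kept direction and side of the threshold, 7 lost a call, 4 gained one and 5 changed direction, all of these for Trpv5. Gc, Pth1r and Kl passed in all 16. Trpv5 was 0.000139 with DESeq2 size factors, 0.0136 with limma-voom, 0.0564 with the replicate block, and -0.22 to 0.36 without 1 library. Of the 10 genes, 1 to 3 were called lower and 2 to 3 higher without 1 library. Over all genes, 2151 were higher and 1774 lower; the counts were 1072 and 4883 with total counts only, 1313 and 973 with the replicate block, 1052 and 660 without both replicates 3, and 1374 to 2011 and 851 to 1523 without 1 library. Pathway genes called higher, 3 in the comparison of all libraries, were 10 with DESeq2, 1 without both replicates 3 and 2 to 6 without 1 library, and those called lower, 6 there, were 23 with total counts only and 3 to 8 without 1 library. Of 319 repeats over the other 20 named genes, 284 stayed the same, 17 lost and 8 gained a call, and 10 changed direction, all in genes that had not passed: S100g (0.0215 with limma-voom, 0.0151 with the replicate block, -0.29 to 0.28 without 1 library), Umod (-0.0152 with total counts, -0.0117 to 0.46 without 1 library), Cldn2 (-0.0819 to 0.0649 without 1 library, 0.0975 without both replicates 3) and Slc20a1 (-0.0564 to 0.60 without 1 library). The cause was not tested. Rxrg was not tested under the stricter filter. Deviations from the group mean had correlations of -0.15, 0.06 and 0.14 between same-numbered libraries, and of -0.30 to 0.24 between differently numbered ones. With so few libraries, these values cannot decide whether the numbers pair the samples, and no label says so. Under the block Vdr did not pass (adjusted p = 0.0604), nor did Atp2b1 (adjusted p = 0.0595), and Cyp24a1 passed as lower (log2 fold change -0.83, adjusted p = 0.0291). The ratio differences of 1.75 and 1.01 had p = 0.25 in an exact sign-flip permutation test by replicate number, the smallest that 3 pairs allow, and without 1 library ran from 1.17 to 2.31 and from 0.89 to 1.17. With 3 libraries per group, SEs of the 10 log2 fold changes were 0.11 to 0.60, which limits the size of difference that could be detected.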
